A study of Mus musculus with 20 samples.

Results

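Tumor cells that had regrown in bone under an anti-androgen were compared with cells of the same kind from mice that had also lost their macrophages. The comparison took in 10 of the 20 tumor cell libraries of the series, 5 labeled as resistant (Resist) and 5 labeled as resistant with macrophage depletion (Resist-Mac), and the libraries were chosen by those labels alone. All libraries came from MycCaP-Bo, a single bone-homing cell line derived from a Myc-driven mouse prostate tumor and selected in FVB/N males, which carries an iRFP and luciferase reporter. Mice 4 to 6 weeks old received these cells by injection into the heart. Resist mice were then given the anti-androgen enzalutamide by daily gavage at 30 mg/kg for 18 d. Resist-Mac mice were given the same enzalutamide and, in the last 4 d, intravenous clodronate liposomes at 1 mg per mouse, which kill the phagocytes that take them up. Every group compared here therefore carried enzalutamide, and clodronate was the labeled difference. Tumor cells were sorted as CD45-negative and iRFP-positive, and each library pooled the cells of 3 mice. The vehicle-treated groups Naive and Naive-Mac enter only as values set beside a few genes. Of the 17027 genes listed with an Entrez identifier in any tumor cell table, 10031 could be tested.

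Macrophages in bone engulf dead cells, shape the extracellular matrix and release growth factors, among them members of the activin and TGF-β family. Tumor cells sense matrix proteins such as fibronectin and the laminins through integrins, which gather focal adhesions and the kinase Src beneath the membrane. Most prostate cancers depend on androgens, whose action enzalutamide blocks.

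The authors deposited FPKM, the number of sequenced fragments scaled to the length of the transcript and to the size of the library. The value of a single fragment, read from genes with a single transcript, placed the depth at about 11300000 to 13300000 fragments in Resist libraries and 10400000 to 11300000 in Resist-Mac libraries, an estimate with no counting interval. Between 13040 and 13991 genes were above 0 in Resist libraries and between 12105 and 13053 in Resist-Mac libraries. The groups were deposited in separate tables that were normalized apart, and the tables set Resist with Naive in one batch and Resist-Mac in another. Batch and depletion cannot be told apart in any value below. Nothing in the sources used here names the cultures or mice behind each pool, so p-values measure the spread between these pooled libraries.

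The label of the sorted cells was checked against markers of prostate and epithelial identity. The summed FPKM of the 10 such markers listed was 939 to 1432 in Resist libraries and 1127 to 1492 in Resist-Mac libraries, so the groups overlapped. Spint2, at 451 to 806 FPKM, and Cldn3, at 202.5 to 463 FPKM, were well detected, whereas Cdh1, Krt18 and Cldn7 stayed at or below 0.52 FPKM in every library. Epithelial identity thus rested on a part of the list.

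Markers of neutrophils, the granule-rich phagocytes of marrow, reached their highest levels in libraries labeled as macrophage-depleted. The 14 neutrophil markers summed to 62.4 to 611 FPKM in Resist libraries, with a median of 226. In Resist-Mac libraries they summed to 8847, 1004, 408, 2492 and 4923 FPKM for replicates 1 to 5. Replicates 1, 2, 4 and 5 lay above every Resist library by this measure, and replicate 3 lay within the Resist range. After the length correction explained below, 4 of the 14 were called lower in Resist and 0 higher. S100a8, which encodes a calcium-binding protein of neutrophils, was at 22.3 to 191 FPKM in Resist and reached 3636 FPKM in Resist-Mac replicate 1. The 18 macrophage markers summed to 12.9 to 65.4 FPKM in Resist and 42.1 to 878 FPKM in Resist-Mac, and Lyz2, a lysozyme that neutrophils also make, was at 1.96 to 45.7 FPKM and 33.9 to 788 FPKM. The macrophage list did not move in one direction. Adgre1, which encodes F4/80, was at 0 to 0.17 FPKM in Resist and 0 to 0.52 FPKM in Resist-Mac, and C1qa was at 0.15 to 0.94 and 0 to 0.36 FPKM. Csf1r, the receptor for macrophage growth factors, averaged 0.32 FPKM in Resist and 1.13 FPKM in Resist-Mac, and Cd68, a lysosomal protein, was at 0.91 to 2.38 and 0.85 to 4.32 FPKM. Cd14, a receptor for bacterial lipids that neutrophils also carry, averaged 4.27 FPKM in Resist and 28.7 FPKM in Resist-Mac, where it reached 74.7 FPKM in replicate 1. Mertk, which encodes a receptor for dead cells, went the other way, at 4.93 to 8.29 FPKM in Resist and 2.04 to 3.81 FPKM in Resist-Mac. Monocyte markers summed to 70.2 to 146 FPKM in Resist and 111 to 515 FPKM in Resist-Mac, and erythroid markers to 109 to 204 and 131 to 311 FPKM. Markers of osteoblasts and stroma summed to 12.6 to 42.4 FPKM in Resist and 6.49 to 17.0 FPKM in Resist-Mac, and those of osteoclasts to 7.13 to 14.4 and 5.97 to 43.5 FPKM. Endothelial, megakaryocyte, B cell and T cell lists each stayed under 15 FPKM in every library. In bulk samples, fewer cells of a type and less RNA per cell cannot be told apart. The part of neutrophil RNA in the results below was not tested, and counts from a fit without Resist-Mac replicates 1, 4 and 5, an alternative chosen after seeing the data, are given beside each gene list. The column names of the replicates kept, 2 and 3, share a beginning, and those of replicates 4 and 5 share another. Neutrophil level and this grouping cannot be told apart in that fit.

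**Figure D1:**
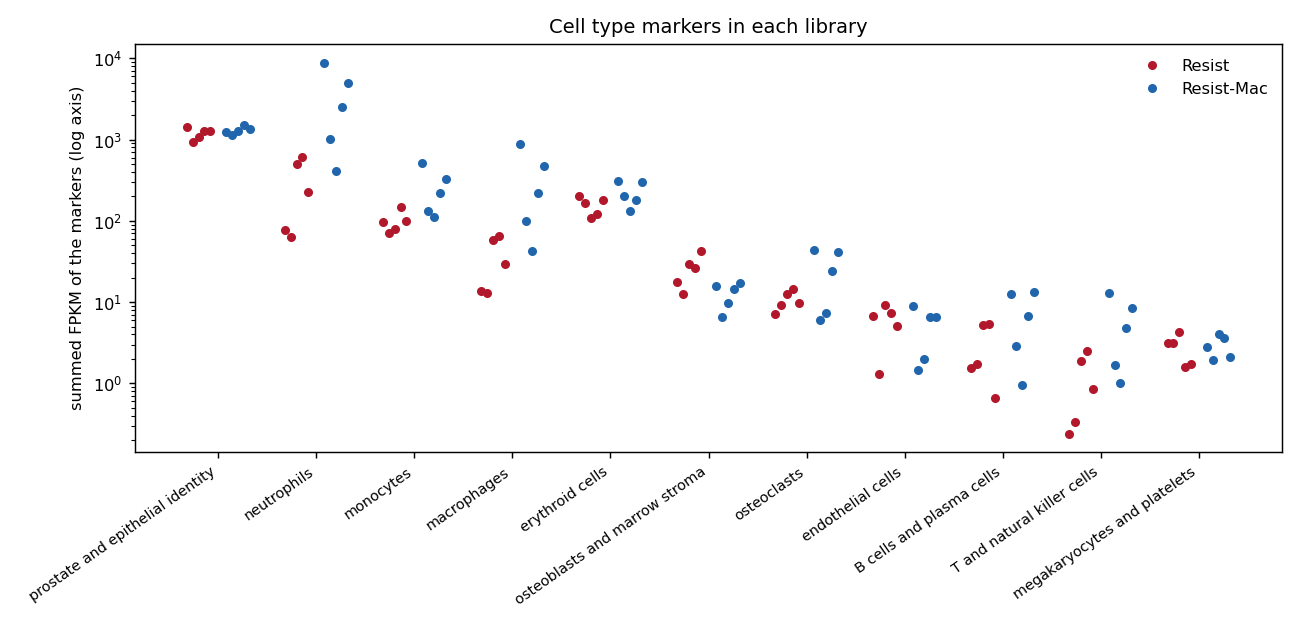
Summed FPKM of cell type markers (log axis) for each list on the horizontal axis, with 1 point per library, red for Resist and blue for Resist-Mac. Neutrophil markers ran from 62.4 to 611 in Resist and from 408 to 8847 in Resist-Mac, while prostate and epithelial markers overlapped.

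The difference between the groups followed transcript length. Each library's deviations from the gene means were regressed on log2 of the longest transcript, and the slope was 0.15, 0.21, 0.20, 0.21 and 0.17 log2 units per doubling of length in Resist replicates 1 to 5. In Resist-Mac replicates 1 to 5 it was -0.26, -0.29, -0.16, -0.10 and -0.14. All Resist libraries leaned toward long transcripts and all Resist-Mac libraries toward short ones. Resist had a mean slope of 0.19 ± 0.027 (SD, n = 5), whereas that of Resist-Mac libraries was -0.19 ± 0.082 (SD, n = 5), a difference of 0.38 by a two-sided exact permutation test with p = 0.00794, the smallest that 5 against 5 libraries allow. Among the 445 genes with transcripts under 1000 bases the median difference in deposited values (Resist minus Resist-Mac, log2(FPKM + 1)) was -0.72. Among the 532 genes with transcripts of 8000 bases or more it was 0.67. Genes under 1000 bases held 19.6% ± 0.58 (SD, n = 5) of the FPKM tested in Resist, and their share in Resist-Mac was 24.5% ± 2.29 (SD, n = 5). Genes are therefore compared below with genes of like length, through a smooth curve of length fitted and subtracted in each library. The values after that step are called length-corrected, and the deposited difference is given beside them for some genes and lists only.

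**Figure D2:**
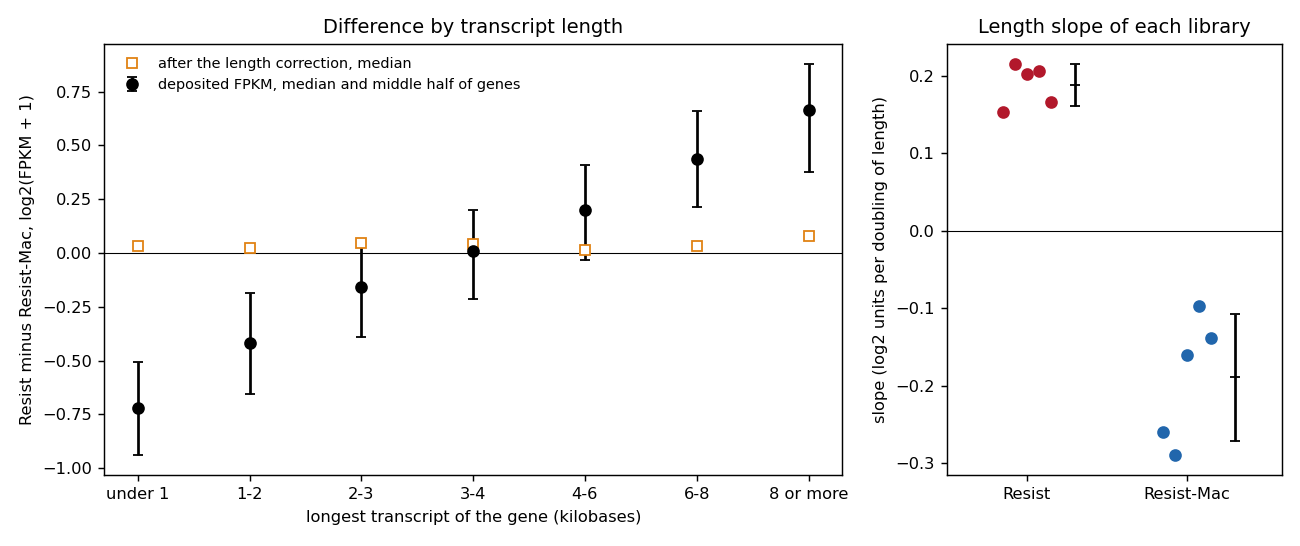
Left, Resist minus Resist-Mac on the log2(FPKM + 1) scale by transcript length in kilobases, with the median and quartiles of genes as deposited (black) and the median after length correction (orange squares). Right, the length slope of each library with mean and SD, all above 0 in Resist and all below 0 in Resist-Mac.

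After the length correction, 899 of the 10031 genes (8.96%) were called, which required a limma adjusted p below 0.05 together with a change of more than 1.5-fold. Of these, 408 were higher in Resist (4.07% of genes tested) and 491 were lower (4.89%). On the deposited scale the same rule called 2174 genes (21.7%), 974 higher (9.71%) and 1200 lower (12%) in Resist. Both scales called 616 genes, all in the same direction, which is 68.5% of the length-corrected calls and 28.3% of the deposited ones. The other 283 length-corrected calls were not made on the deposited scale. They included Myc (0.35 as deposited), Il34 (0.23), Cdkn1a (0.31), Dusp4 (0.58), Tagln (0.57), Hspa1a (0.52), Lypd2 (0.76), Sod2 (-0.37) and Mxi1 (-0.39). Gadd45g and Ddit3, called on both scales, had deposited differences of 0.72 and 0.60 and larger ones after correction. The median length-corrected difference over all genes was 0.03. For 17.4% of all genes tested, every length-corrected Resist value lay on one side of every Resist-Mac value. Without Resist-Mac replicates 1, 4 and 5, 1303 of 9879 genes (13.2%) were called, 493 higher (4.99%) and 810 lower (8.20%), and list counts from that fit are to be read against these shares. Quantile normalization called 1014 genes, 518 higher (5.16%) and 496 lower (4.94%).

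**Figure D3:**
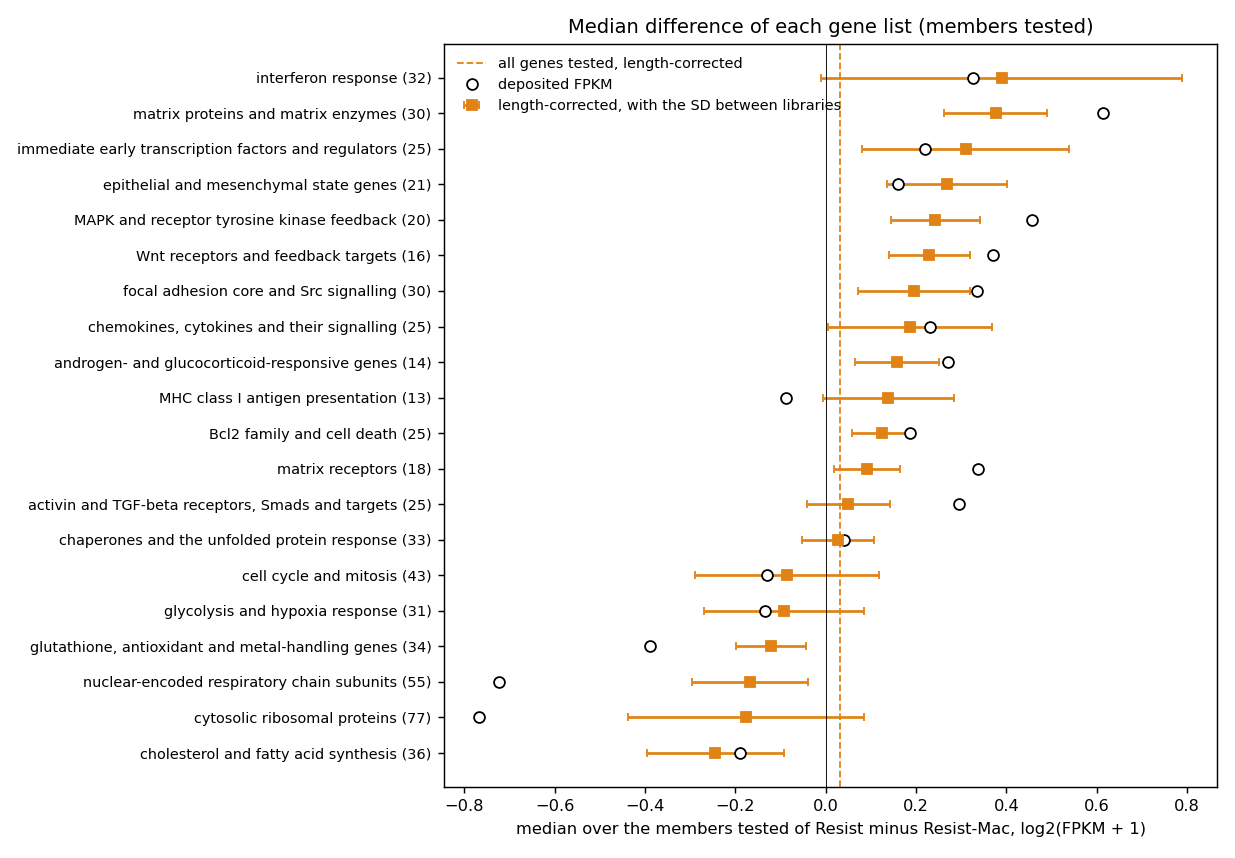
Median difference (Resist minus Resist-Mac, log2(FPKM + 1)) of each gene list, with the number of members tested in brackets, as deposited (open circles) and after length correction (orange squares, bars show the SD of the list median between libraries). Of the lists drawn, interferon response and matrix had the highest length-corrected medians (0.39 and 0.38) and cholesterol and fatty acid synthesis the lowest (-0.24), beside 0.03 for all genes (dashed line).

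Transcripts of fibronectin and Sparc were higher in Resist, while most other matrix genes did not pass the test once length was taken into account. Of the 30 tested among 52 matrix proteins and enzymes, 3 were called higher and 0 lower after length correction, beside 4.07% and 4.89% of all genes, and the median difference was 0.38. On the deposited scale 11 were called higher and the median was 0.61. Fn1, which encodes fibronectin, was at 1196, 1520, 1371, 1573 and 1230 FPKM in Resist and at 469, 498, 729, 696 and 538 FPKM in Resist-Mac. Every Resist library lay above every Resist-Mac library. The length-corrected difference was 0.73 (SE 0.12, limma adjusted p = 0.00175) and the deposited one 1.25, the Fn1 transcript being 8315 bases long. Sparc, which encodes a collagen-binding matricellular protein, was at 13.6 to 16.9 FPKM in Resist and 4.57 to 12.5 FPKM in Resist-Mac and rose by 0.98 (SE 0.21, limma adjusted p = 0.0069). Without Resist-Mac replicates 1, 4 and 5 the call of Fn1 (0.53) was lost, that of Sparc (0.67) held, the list median was 0.22, and 1 member was called higher and 1 lower. Quantile normalization gave a median of 0.46 with 6 higher and 0 lower. Sparc is also made by osteoblasts and stroma, whose summed markers were at 12.6 to 42.4 FPKM in Resist and 6.49 to 17.0 FPKM in Resist-Mac, and their part in these differences was not tested.

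Other laminin chains had positive differences that did not pass. Lama5, the α5 laminin chain, was at 44.5 to 74.5 FPKM in Resist and 20.4 to 35.5 FPKM in Resist-Mac. The groups did not overlap as deposited but overlapped after length correction. Its deposited difference of 1.06 fell to 0.41 (SE 0.14, limma adjusted p = 0.0537) after correction for a transcript of 11388 bases. Lamb2, the β2 chain, was at 52.0 to 76.7 FPKM in Resist and 33.7 to 48.7 FPKM in Resist-Mac, and its length-corrected difference was 0.33 (SE 0.12, limma adjusted p = 0.0657). Lamc1 differed by 0.41 after correction, under the fold required. Osteopontin (Spp1), an abundant secreted matrix protein, averaged 2813 FPKM in Resist and 2104 FPKM in Resist-Mac and differed by 0.85 with an adjusted p from limma of 0.13. Members with a negative value, none of them called, included Mmp9, a protease that neutrophils also store, at a mean of 2.44 FPKM in Resist and 17.8 FPKM in Resist-Mac, and the matricellular gene Thbs1 at 1.22 and 5.44 FPKM.

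Receptors for matrix proteins gave no calls for their length. Among the 18 matrix receptors tested, limma called 0 after length correction, although 4 were higher and 1 lower at an unadjusted p under 0.05, and a noise-distribution probability over 0.8, which sets each difference against differences between libraries of the same group, also called 0. The median was 0.09 after correction and 0.34 as deposited, where 3 were called higher. Quantile normalization called 2 higher, and 1, Cd47, was called lower against Resist-Mac replicates 2 and 3 alone. Itga5, the fibronectin receptor subunit α5, was at 27.1, 18.0, 28.8, 21.3 and 13.4 FPKM in Resist and at 17.2, 18.2, 20.1, 14.4 and 8.38 FPKM in Resist-Mac. The groups overlapped widely, and the length-corrected difference was 0.31 (SE 0.26, limma adjusted p = 0.392). Itgav, the integrin αv subunit, averaged 19.4 FPKM in Resist and 9.27 FPKM in Resist-Mac, a length-corrected difference of 0.58 that fell just short of the fold required. Sdc4 and Cd151, a syndecan and a tetraspanin that associate with integrins, differed by -0.13 and -0.14. Of 30 focal adhesion and Src signaling genes, 1 was called higher and 0 lower, beside 4 higher with quantile normalization and 3 higher against Resist-Mac replicates 2 and 3 alone. At an unadjusted limma p under 0.05, 13 were higher and 0 lower. The median was 0.20 after correction and 0.33 as deposited, where 8 were called higher and 0 lower. The gene called after correction was Actn1, which encodes the actin cross-linker α-actinin-1, at 73.9 to 136 FPKM in Resist and 41.8 to 80.7 FPKM in Resist-Mac, with a difference of 0.77 (SE 0.16, limma adjusted p = 0.00622). Src was at 6.66 to 12.2 FPKM in Resist and 5.32 to 9.55 FPKM in Resist-Mac, with a length-corrected difference of 0.29 (SE 0.16, limma adjusted p = 0.205).

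Genes of the activin and TGF-β pathway gave a single call. Activins bind the type II receptors Acvr2a and Acvr2b, which recruit the type I receptor Acvr1b and lead to phosphorylation of Smad2 and Smad3. Among 25 members tested 0 were called higher and 1 lower, with a length-corrected median of 0.05 and a deposited median of 0.30. Against Resist-Mac replicates 2 and 3 alone 2 were called higher and 1 lower, and quantile normalization gave 1 and 1. Acvr1b was at 8.55, 8.14, 10.1, 8.03 and 7.17 FPKM in Resist and at 4.11, 3.29, 5.30, 5.99 and 5.14 FPKM in Resist-Mac. All Resist libraries lay above all Resist-Mac libraries, and the length-corrected difference of 0.58 (SE 0.11, limma adjusted p = 0.00324) lay at the fold threshold and was called without Resist replicate 4 (0.61) or 5 (0.62) or Resist-Mac replicate 3 (0.63) or 4 (0.62). It was also called without Resist-Mac replicates 1, 4 and 5 together (0.61). Acvr2a differed by -0.15 (limma adjusted p = 0.302). Inhba, the subunit that forms activin A, was too low to test, at 0.39 to 1.05 FPKM in Resist and 0.45 to 0.82 FPKM in Resist-Mac. The member called lower was Smad2, at 4.15 to 4.99 FPKM in Resist and 4.69 to 5.12 FPKM in Resist-Mac. Its deposited difference was -0.09 and its length-corrected one -0.59, so the call came from the correction for its transcript of 8089 bases. It was lost without Resist replicate 1 (-0.58) or 3 (-0.54) or Resist-Mac replicate 2 (-0.51) or 3 (-0.58), and the median transcript length turned its sign.

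The androgen- and glucocorticoid-responsive genes that were called were higher in Resist. Of 14 such genes tested, 2 were called higher (14.3%) and 0 lower, beside 4.07% and 4.89% of all genes. The same counts were found against Resist-Mac replicates 2 and 3 alone, and quantile normalization called 4 higher. Zbtb16, a zinc finger repressor induced by androgens and glucocorticoids, was at 9.07, 17.5, 23.3, 17.0 and 18.2 FPKM in Resist and at 3.91, 4.89, 6.54, 6.87 and 5.48 FPKM in Resist-Mac, a difference of 1.19 (SE 0.20, limma adjusted p = 0.00152) without overlap. Fkbp5, a classical target of both hormones, averaged 340 FPKM in Resist and 291 FPKM in Resist-Mac and differed by 0.17 without passing. Myc, which is also the driver of this line, was at 143 to 198 FPKM in Resist and 86.5 to 194 FPKM in Resist-Mac. Its call (0.59, SE 0.19, limma adjusted p = 0.0411) was lost when any 1 library but Resist-Mac replicate 4 or 5 was left out, with differences of 0.45 to 0.63. Among 16 Wnt receptors and feedback targets 2 were called higher, the receptor kinase Ror1 (0.73, SE 0.18, limma adjusted p = 0.014) and the receptor Fzd4 (0.66, SE 0.18, limma adjusted p = 0.0215). Fzd4 was lost without Resist replicate 2 (0.60) or 4 (0.57) or Resist-Mac replicate 1 (0.59) or 4 (0.58). Neither Ror1 (0.57) nor Fzd4 (0.35) was called against Resist-Mac replicates 2 and 3 alone, where Tcf7l1, named after its value was seen, was the 1 member called higher.

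Several immediate early genes, the transcription factors and regulators that respond within minutes to growth factors and stress, were higher in Resist. Of 25 tested, 5 were called higher and 0 lower, with a length-corrected median of 0.31, and the same counts were found without Resist-Mac replicates 1, 4 and 5, where the median was 0.52. Quantile normalization called 11 higher and 0 lower, with a median of 0.60. The called members were Gadd45g and Gadd45b, which encode stress sensors, and Klf4, Fos and Fosb, which encode transcription factors. Fos was at 1075, 1164, 546, 554 and 909 FPKM in Resist and at 518, 451, 565, 480 and 415 FPKM in Resist-Mac. As deposited, Resist replicates 3 and 4 lay within the Resist-Mac range while the other Resist libraries lay far above it. After length correction the groups did not overlap, and the difference was 1.03 (SE 0.22, limma adjusted p = 0.00744). Klf4 was at 197, 205, 97.9, 88.4 and 130 FPKM in Resist and at 76.7, 55.0, 61.4, 80.1 and 72.7 FPKM in Resist-Mac, without overlap, and differed by 1.08 (SE 0.23, limma adjusted p = 0.00676). The same Resist libraries, replicates 3 and 4, were the lowest for Fos, Klf4 and Fosb. Gadd45g was at 63.0 to 127 FPKM in Resist and 43.9 to 89.5 FPKM in Resist-Mac and differed by 1.32 (SE 0.22, limma adjusted p = 0.0017). Jun and Junb, which partner with Fos proteins in AP-1, differed by 0.35 and 0.07 and were not called. Fos (0.93) and Fosb (0.73) were not called without Resist-Mac replicates 1, 4 and 5, where Atf3 and Zfp36l1, named after their values were seen, were called instead. Neutrophil markers were highest among Resist libraries in replicates 3 (495 FPKM) and 4 (611 FPKM), and their part in the low Fos values there was not tested.

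Growth factor and stress signals reach these genes partly through cAMP response elements in their promoters. The 250 bases before the start of Fos, Fosb and Klf4 are shown because these members moved together and hold the short form of that element, TGACG on either strand, which stands in capitals. The sequences are RefSeq promoters of build GRCm38.p6, given 5′ to 3′ on the strand of the gene.
Fos, chr12:85473640-85473889, strand plus: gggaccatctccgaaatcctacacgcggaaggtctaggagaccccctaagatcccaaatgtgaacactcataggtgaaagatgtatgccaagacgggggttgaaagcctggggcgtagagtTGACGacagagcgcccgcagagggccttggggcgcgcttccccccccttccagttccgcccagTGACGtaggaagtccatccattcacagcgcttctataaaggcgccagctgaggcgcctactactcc
Fosb, chr7:19310046-19310295, strand minus: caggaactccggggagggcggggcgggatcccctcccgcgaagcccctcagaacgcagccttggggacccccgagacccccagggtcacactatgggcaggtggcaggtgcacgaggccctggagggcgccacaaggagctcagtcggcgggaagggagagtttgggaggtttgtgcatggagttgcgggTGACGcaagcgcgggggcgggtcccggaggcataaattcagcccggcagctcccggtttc
Klf4, chr4:55532476-55532725, strand minus: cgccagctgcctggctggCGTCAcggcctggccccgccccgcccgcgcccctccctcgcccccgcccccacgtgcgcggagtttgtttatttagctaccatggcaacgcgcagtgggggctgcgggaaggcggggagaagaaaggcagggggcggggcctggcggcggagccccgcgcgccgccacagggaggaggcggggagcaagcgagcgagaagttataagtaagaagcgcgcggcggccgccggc
The short form occurred in the windows of 3 of the 5 called members and in those of 8 of the 18 members not called that had a window, beside 17.9% of all 32526 windows of that length. The full element TGACGTCA, which contains the short form, occurred in 0 of the 5 and in 2 of the 18, beside 1.56% of all windows. The CArG box bound by serum response factor also occurred in 0 of the 5 and in 2 of the 18, beside 1.48%. Bases further upstream were not searched. A match is a description of these letters alone.

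Of 20 feedback genes of the MAPK pathway and receptor tyrosine kinases, 3 were called higher and 0 lower, with a median of 0.24, and 4 were called higher against Resist-Mac replicates 2 and 3 alone. Erbb3, a receptor of the EGF receptor family, was at 27.4 to 34.5 FPKM in Resist and 9.24 to 20.5 FPKM in Resist-Mac, without overlap, and differed by 0.78 (SE 0.15, limma adjusted p = 0.00354). Dusp4, a phosphatase that switches MAP kinases off, was at 86.6 to 138 FPKM in Resist and 61.0 to 86.4 FPKM in Resist-Mac and differed by 0.74 (SE 0.15, limma adjusted p = 0.00448). Fgfr2, a fibroblast growth factor receptor, differed by 0.73 (SE 0.16, limma adjusted p = 0.00857).

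**Figure D4:**
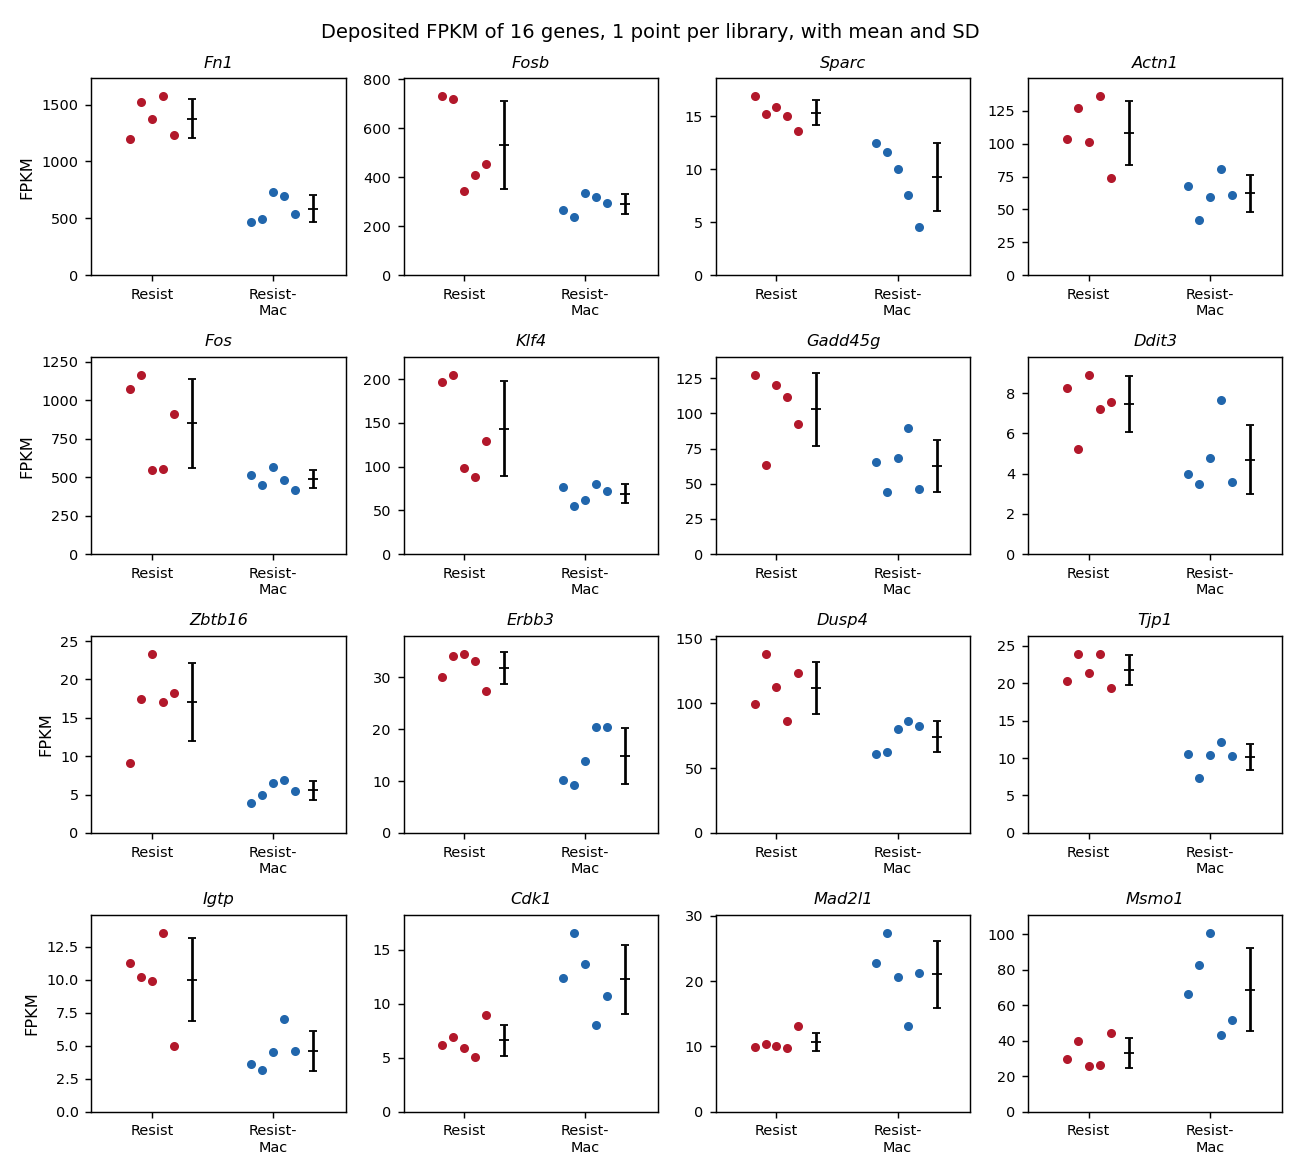
Deposited FPKM (linear axes from 0) of 16 genes, 1 point per library, with mean and SD, Resist in red and Resist-Mac in blue. Fn1, Erbb3 and Tjp1 showed no overlap between the groups, and Mad2l1 and Cdk1 were lower in Resist.

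Interferon-response genes had the highest median of the pathway lists, 0.39, and also the widest spread of the list median between libraries (SD 0.40). Of 32 tested, 4 were called higher and 0 lower. Igtp, a GTPase induced by interferon-γ, was at 11.3, 10.3, 9.92, 13.6 and 5.02 FPKM in Resist and at 3.63, 3.14, 4.56, 7.02 and 4.62 FPKM in Resist-Mac, with a difference of 1.26 (SE 0.22, limma adjusted p = 0.00238). Resist replicate 5 fell into the Resist-Mac range and Resist-Mac replicate 4 was the highest of its group. Gbp2, another interferon-induced GTPase, was at 4.25 to 5.30 FPKM in 4 Resist libraries and at 1.5 FPKM in replicate 5, against 1.18 to 2.89 FPKM in Resist-Mac, a difference of 1.07 (SE 0.24, limma adjusted p = 0.00809). The kinase Eif2ak2, which senses double-stranded RNA, differed by 0.64 and lost its call without Resist replicate 3 (0.61) or 4 (0.54) or Resist-Mac replicate 1 (0.59) or 2 (0.58). Herc6, a ligase for the ubiquitin-like protein Isg15, differed by 0.63 and lost its call without Resist replicate 4 (0.57) or Resist-Mac replicate 3 (0.58). Without Resist-Mac replicates 1, 4 and 5, 15 of the 32 members were called higher and 0 lower, and the median was 0.85. Both figures were over 1.5 times those over all libraries. Of 13 genes of MHC class I antigen presentation limma called 0, with 4 higher and 0 lower at an unadjusted p under 0.05, the noise-distribution probability called 1, and limma called 3 higher without those replicates. The median was 0.14 and turned to -0.09 on the deposited scale. B2m, the light chain of MHC class I, was at 670 to 1557 FPKM in Resist and 838 to 1646 FPKM in Resist-Mac. Its deposited difference was -0.09 and its length-corrected one 0.62 (SE 0.23, limma adjusted p = 0.0688), so its sign depended on the correction. The length-corrected difference passed without Resist replicate 2 (0.78) or Resist-Mac replicate 4 (0.78).

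Of 25 chemokine, cytokine and cytokine-signaling genes 3 were called higher and 0 lower, with a median of 0.19. Quantile normalization called 1 higher. Against Resist-Mac replicates 2 and 3 alone 2 were called higher and 1 lower, the median was 0.41, and Il6st (0.45) and Il34 (0.26) were not called. Relb, a subunit of the alternative NF-κB pathway, was at 6.75 to 12.9 FPKM in Resist and 4.35 to 7.56 FPKM in Resist-Mac and differed by 0.73 (SE 0.16, limma adjusted p = 0.00836). Il6st, the gp130 receptor chain shared by the interleukin-6 family, was at 7.65 to 13.6 FPKM in Resist and 3.50 to 4.61 FPKM in Resist-Mac, without overlap. Its length-corrected difference was 0.61 (SE 0.12, limma adjusted p = 0.00436), and the call was lost without Resist replicate 3 (0.54) or Resist-Mac replicate 1 (0.57). Il34, which encodes a ligand of the macrophage growth factor receptor Csf1r, was called at 0.59 (SE 0.19, limma adjusted p = 0.0363) on overlapping values of 15.1 to 25.7 FPKM in Resist and 12.1 to 21.4 FPKM in Resist-Mac. That call was lost without Resist replicate 2 (0.46) or 3 (0.59) or Resist-Mac replicate 1 (0.51), 4 (0.58) or 5 (0.51).

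Of 43 cell cycle genes 0 were called higher and 2 lower in Resist, with a median of -0.09. Mad2l1, a spindle checkpoint protein, was at 9.99, 10.4, 10.1, 9.78 and 13.1 FPKM in Resist and at 22.9, 27.4, 20.7, 13.2 and 21.3 FPKM in Resist-Mac, and fell by 1.35 (SE 0.22, limma adjusted p = 0.00129). The lowest Resist-Mac library barely exceeded the highest Resist library, and Mad2l1 has 1 near-identical copy that could share its fragments. Cdk1, the kinase that drives entry into mitosis, was at 5.06 to 8.94 FPKM in Resist and 8 to 16.6 FPKM in Resist-Mac and fell by 0.92 (SE 0.22, limma adjusted p = 0.0114). Without Resist-Mac replicates 1, 4 and 5, 6 members were called lower and 0 higher, with a median of -0.28. Among 25 Bcl2 family and cell death genes 2 were called higher and 0 lower. Pmaip1, which encodes the death-promoting protein Noxa, was at 74.7 to 125 FPKM in Resist and 44.0 to 79.3 FPKM in Resist-Mac and differed by 0.86 (SE 0.20, limma adjusted p = 0.0101). Against Resist-Mac replicates 2 and 3 alone the difference was 0.41 and was not called, which left 1 call in the list. Cdkn1a, the cell cycle inhibitor p21, differed by 0.61 (SE 0.15, limma adjusted p = 0.0144) and lost its call without Resist replicate 2 (0.56) or 4 (0.55) or Resist-Mac replicate 1 (0.51) or 2 (0.54).

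Chaperones and genes of the unfolded protein response were split, with 4 of 33 called higher, 1 lower and a median of 0.03, which was -0.00899 without Resist replicate 5. Quantile normalization gave 13 higher, 1 lower and a median of 0.36, and against Resist-Mac replicates 2 and 3 alone 2 were higher and 2 lower, with a median of 0.087. Ddit3, the stress transcription factor CHOP, was at 8.27, 5.23, 8.89, 7.23 and 7.56 FPKM in Resist and at 4.00, 3.48, 4.75, 7.64 and 3.56 FPKM in Resist-Mac and rose by 1.25 (SE 0.20, limma adjusted p = 0.00124). Resist-Mac replicate 4 stood with the Resist libraries as deposited, but the groups did not overlap after length correction. The inducible HSP70 genes Hspa1b and Hspa1a rose by 0.76 (SE 0.12, limma adjusted p = 0.00105) and 0.64 (SE 0.13, limma adjusted p = 0.00472), and Hspa1a lost its call without Resist-Mac replicate 3 (0.58) or 5 (0.58), or without replicates 1, 4 and 5 (0.55). Hspa8, the constitutive HSP70, went the other way, at 612 to 823 FPKM in Resist and 1584 to 2120 FPKM in Resist-Mac, a fall of 1.29 (SE 0.14, limma adjusted p = 8.78e-05), but it has 11 near-identical copies, 10 of them pseudogenes.

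Of 21 epithelial and mesenchymal state genes 5 were called higher and 0 lower, and the list did not divide by state. The median was 0.27. Quantile normalization called 8 higher with a median of 0.52, and against Resist-Mac replicates 2 and 3 alone 4 were higher and 1 lower with a median of 0.49. Krt14, a basal keratin, was at 12.2 to 36.9 FPKM in Resist and 7.25 to 16.5 FPKM in Resist-Mac and rose by 1.24 (SE 0.28, limma adjusted p = 0.00919). Krt8, a luminal keratin, was at 216, 101, 118, 272 and 244 FPKM in Resist and at 95.3, 84.8, 122, 131 and 102 FPKM in Resist-Mac. As deposited, Resist replicates 2 and 3 lay in the Resist-Mac range and the other Resist libraries above it. After length correction the groups did not overlap, and the difference was 1.06 (SE 0.25, limma adjusted p = 0.0115). Krt8 has 1 pseudogene copy and was not called without Resist-Mac replicates 1, 4 and 5 (1.08). Tjp1, a tight junction scaffold, was at 20.3, 23.9, 21.3, 23.9 and 19.4 FPKM in Resist and at 10.5, 7.28, 10.4, 12.1 and 10.3 FPKM in Resist-Mac. Its length-corrected difference was 0.62 (SE 0.09, limma adjusted p = 0.000476), and it was under the fold required without Resist-Mac replicate 2 (0.58). Tagln, a mesenchymal actin-binding protein, was at 1.38 to 2.49 FPKM in Resist and 0.70 to 1.11 FPKM in Resist-Mac and rose by 0.99 (SE 0.15, limma adjusted p = 0.000736).

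Several genes of sterol synthesis were lower in Resist. Among 36 genes of cholesterol and fatty acid synthesis, which had the lowest median of the pathway lists at -0.24, 0 were called higher and 5 lower. The called members were Msmo1, Idi1, Sqle, Fdft1 and Tm7sf2, all of the mevalonate and sterol branch. Msmo1, a sterol demethylating enzyme, was at 29.8, 40.0, 25.9, 26.4 and 44.5 FPKM in Resist and at 66.1, 82.5, 101, 43.3 and 51.7 FPKM in Resist-Mac, and fell by 0.88 (SE 0.25, limma adjusted p = 0.0265). Idi1, an isomerase of isoprenoid units, was at 12.8, 18.2, 8.89, 10.9 and 16.7 FPKM in Resist and at 28.1, 30.9, 36.9, 18.2 and 23.2 FPKM in Resist-Mac and fell by 0.87 (SE 0.23, limma adjusted p = 0.0193). In both genes Resist-Mac replicate 3 was the highest library and Resist-Mac replicate 4 the lowest of its group. Sqle, which encodes squalene epoxidase, fell by 0.75 (SE 0.18, limma adjusted p = 0.0129), and Fdft1, which encodes squalene synthase, fell by 0.62 (SE 0.14, limma adjusted p = 0.00858). Idi1 has 3 near-identical copies and Fdft1 has 1. The call of Msmo1 was lost without Resist replicate 1 (-0.84), 3 (-0.79) or 4 (-0.79) or Resist-Mac replicate 1 (-0.88), 2 (-0.77) or 3 (-0.72), and that of Idi1 without Resist replicate 3 (-0.73) or 4 (-0.79). Without Resist-Mac replicates 1, 4 and 5, 9 members were called lower and 0 higher, and the median was -0.40. Quantile normalization gave 7 lower and 0 higher, with a median of -0.30.

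Sterol genes are controlled by SREBP factors that work together with the CCAAT-binding factor NF-Y. The 250 bases before Msmo1 and Idi1, both called, are shown with CCAAT, or ATTGG on the other strand, in capitals. Tm7sf2, also called, had 1 such match in its window and is not shown. The sequences shown are again RefSeq promoters of GRCm38.p6 on the strand of the gene, and Sqle and Fdft1 had no entry.
Msmo1, chr8:64733579-64733828, strand minus: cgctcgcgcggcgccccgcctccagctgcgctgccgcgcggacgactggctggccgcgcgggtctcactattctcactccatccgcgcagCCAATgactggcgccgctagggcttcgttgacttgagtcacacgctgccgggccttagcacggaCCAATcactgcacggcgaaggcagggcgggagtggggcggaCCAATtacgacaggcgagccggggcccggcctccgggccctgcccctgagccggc
Idi1, chr13:8885356-8885605, strand plus: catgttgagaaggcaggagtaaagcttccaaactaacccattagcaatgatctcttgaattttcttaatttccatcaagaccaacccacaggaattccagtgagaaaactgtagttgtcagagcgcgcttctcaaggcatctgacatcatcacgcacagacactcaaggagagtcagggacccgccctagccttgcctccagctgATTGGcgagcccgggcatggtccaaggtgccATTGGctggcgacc
CCAAT occurred in the windows of 3 of 3 called members with an entry and of 18 of 23 members not called, beside 33.8% of all windows. The sterol response element TCACNCCAC, where N is any base, occurred in 0 of 3 and 1 of 23, beside 1.05% of all windows.

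Glycolysis and hypoxia genes had 0 of 31 called higher, 3 lower and a median of -0.09, which quantile normalization turned to 0.15, the median transcript length to 0.0036, and leaving out Resist replicate 4 or Resist-Mac replicate 3 to 0.032 or 0.0047. Quantile normalization called 2 higher and 1 lower, and against Resist-Mac replicates 2 and 3 alone 4 were lower and 0 higher. Eno1, a glycolytic enolase, was at 624 to 906 FPKM in Resist and 1389 to 1672 FPKM in Resist-Mac and fell by 0.66 (SE 0.12, limma adjusted p = 0.00267), or by 0.56, under the fold required, without Resist replicate 4, and it has 7 near-identical copies. Pfkp, a phosphofructokinase, had a deposited difference of -0.05 and a length-corrected one of -0.59, and its sign turned with the median transcript length. It was lost without Resist replicate 2 (-0.57), 3 (-0.54) or 4 (-0.51) or Resist-Mac replicate 1 (-0.58) or 3 (-0.52). Mxi1, a Myc antagonist, fell by 0.61 and was lost without Resist replicate 2 (-0.63), 3 (-0.58) or 4 (-0.45) or Resist-Mac replicate 1 (-0.51) or 3 (-0.62), or without Resist-Mac replicates 1, 4 and 5 (-0.55). Of 34 glutathione, antioxidant and metal-handling genes 1 was called, lower in Resist, with a median of -0.12 that quantile normalization turned to 0.054, with 2 higher and 4 lower. Against Resist-Mac replicates 2 and 3 alone 4 were lower and 0 higher. Sod2, the mitochondrial superoxide dismutase, was at 19.3 to 25.2 FPKM in Resist and 23.8 to 34.5 FPKM in Resist-Mac and fell by 0.69 (SE 0.10, limma adjusted p = 0.00052). The ferritin light chain gene Ftl1, at 1931 to 2134 FPKM in Resist and 2378 to 2631 FPKM in Resist-Mac, had a deposited difference of -0.27 and a length-corrected one of 0.38, neither called.

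Ribosomal protein and respiratory chain genes encode short, abundant transcripts and changed most with the correction. Of 77 cytosolic ribosomal protein genes, 67 were called lower and 0 higher in Resist on the deposited scale with a median of -0.77. After length correction 24 were called lower and 1 higher with a median of -0.18, and quantile normalization turned the median to 0.31 with 18 lower and 15 higher. Against Resist-Mac replicates 2 and 3 alone 34 were lower and 0 higher, with a median of -0.53. Near-identical copies exist for 71 of the 77, and among the other 6 members 2 were called lower and 0 higher. Rpl3 was at 0.78 to 1.41 FPKM in Resist and 1414 to 2153 FPKM in Resist-Mac and has 21 copies, all pseudogenes. Of 55 nuclear-encoded respiratory chain subunits, 38 were called lower and 1 higher on the deposited scale with a median of -0.72, and 8 lower and 2 higher with a median of -0.17 after correction, which quantile normalization turned to 0.11 with 1 lower and 5 higher. Against Resist-Mac replicates 2 and 3 alone 13 were lower and 2 higher, with a median of -0.30. Uqcrq, a complex III subunit with no near-identical copy, was at 365, 333, 371, 341 and 430 FPKM in Resist and at 180, 228, 172, 151 and 166 FPKM in Resist-Mac and rose by 1.48 (SE 0.11, limma adjusted p = 3.74e-06). It also averaged 456 FPKM in Naive and 413 FPKM in Naive-Mac tumors. Cycs, which encodes cytochrome c, was at 6.42 to 8.47 FPKM in Resist and 93.2 to 121 FPKM in Resist-Mac and has 1 pseudogene copy. Ndufa1, a subunit of complex I encoded by a transcript of 419 bases, differed by 0.97 after correction and by -0.08 as deposited, so its sign depended on the correction. Ndufb7, also of complex I, differed by -0.98 when its longest transcript was used and by 0.05 with its longest coding one.

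Among single genes, those with the largest called differences, a mean of at least 1 FPKM in each group, no overlap of length-corrected values and no near-identical copy were examined, 12 in each direction. Of these genes, 4 stood apart on the higher side. Rnf216, a ubiquitin ligase, was at 1805 to 2575 FPKM in Resist and 6.76 to 13.03 FPKM in Resist-Mac. Ogfod2 was at 468 to 684 and 24.9 to 34.0 FPKM, Zfp236 at 70.3 to 102 and 1.83 to 2.92 FPKM, and Galnt11 at 139 to 187 and 8.82 to 13.3 FPKM. Naive libraries resembled Resist in all 4 and Naive-Mac libraries, which form a batch of their own, were as low as Resist-Mac or lower. The other 8 differed by 1.63 to 2.22. Slc15a2 and Pdzk1 encode a peptide transporter and a scaffold of membrane transporters. Slc15a2 was at 18.5, 25.01, 25.04, 22.7 and 16.8 FPKM in Resist and at 7.11, 6.89, 4.87, 5.33 and 3.06 FPKM in Resist-Mac (difference 1.77, SE 0.21, limma adjusted p = 0.000125). Pdzk1 was at 4.38 to 5.89 and 0.36 to 1.56 FPKM (1.80, SE 0.18, limma adjusted p = 3.46e-05). The sulfotransferase gene Sult5a1 was at 17.6 to 25.4 and 2.43 to 7.95 FPKM (1.77, SE 0.22, limma adjusted p = 0.000244). Fbxo24, Spink8, Tmem80, Lypd2 and Guca1a completed the set, of which Spink8 ranged within Resist from 1.96 to 9.38 FPKM and Lypd2 from 1.94 to 10.8 FPKM, both overlapping Resist-Mac as deposited.

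On the lower side, Rps29, a ribosomal protein gene, was at 78.7 to 145 FPKM in Resist and 1394 to 1881 FPKM in Resist-Mac (-2.91, SE 0.15, limma adjusted p = 4.93e-08), beside means of 124 FPKM in Naive and 2145 FPKM in Naive-Mac. Wdr89 was at 1.5 to 2.12 FPKM in Resist and 11.3 to 19.0 FPKM in Resist-Mac (-2.41, SE 0.17, limma adjusted p = 1.15e-06), and Naive-Mac, at a mean of 2.27 FPKM, resembled Resist. Sptan1, the cytoskeletal αII-spectrin, was at 16.3, 26.3, 20.5, 20.2 and 15.2 FPKM in Resist and at 52.1, 36.5, 46.7, 53.6 and 50.5 FPKM in Resist-Mac (-1.75, SE 0.12, limma adjusted p = 1.21e-06), with lower means of 14.97 FPKM in Naive and 6.32 FPKM in Naive-Mac. Arpp19, an inhibitor of the phosphatase PP2A in mitosis, was at 17.6 to 20.1 FPKM in Resist and 44.5 to 66.4 FPKM in Resist-Mac (-1.44, SE 0.14, limma adjusted p = 3.12e-05). Parp3, a DNA repair enzyme, was at 0.94 to 1.44 and 5.57 to 8.29 FPKM (-1.65, SE 0.12, limma adjusted p = 1.95e-06), and Tiprl, a regulator of PP2A-like phosphatases, at 7 to 7.8 and 20.7 to 26.6 FPKM (-1.67, SE 0.12, limma adjusted p = 2.26e-06). The others were Gm11127, Zfp488, Mrps17, H1f3, Zfp513 and Inafm1, with differences of -1.38 to -1.87.

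Some genes were near 0 in one group and well detected in the other, 3 in each direction at a mean under 0.1 FPKM in one and of at least 5 FPKM in the other. Nckap5 and Bex6 were at 1847 to 2575 and 1837 to 2620 FPKM in Resist, and at no more than 0.09 and 0.2 FPKM in any Resist-Mac library. Their values, with those of Rnf216, nearly coincided library by library: the highest of the 3 exceeded the lowest by 1.76% to 10.8% in Resist and by 2.88% to 7.86% in Naive libraries. In Naive-Mac, Nckap5 and Bex6 were listed at 0 in all 5 libraries. Ece2, an endothelin-converting enzyme with 1 near-identical copy, was at 17.8 to 22.9 FPKM in Resist, at no more than 0.03 FPKM in Resist-Mac and at 48.2 to 60.5 FPKM in Naive-Mac. Mia2, a cargo receptor of the endoplasmic reticulum, was at no more than 0.05 FPKM in Resist and at 56.5 to 85.8 FPKM in Resist-Mac, beside no more than 0.7 FPKM in Naive-Mac. Dpm1, a mannosyltransferase subunit, was at no more than 0.27 FPKM in Resist, 10.3 to 16.4 FPKM in Resist-Mac and 13.6 to 16.4 FPKM in Naive-Mac. Ece2 and Mia2 thus set Resist-Mac apart from Naive-Mac as well, while the other 3 set batches 2 and 3 apart from batch 1. Pip met the rule only through Resist-Mac replicate 4, at 26.5 FPKM beside 0 to 1.07 FPKM in the other Resist-Mac libraries, and was not called. Because the tables were normalized separately and batch equals group, the part of batch and of the quantification in these differences cannot be told apart from depletion.

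**Figure D5:**
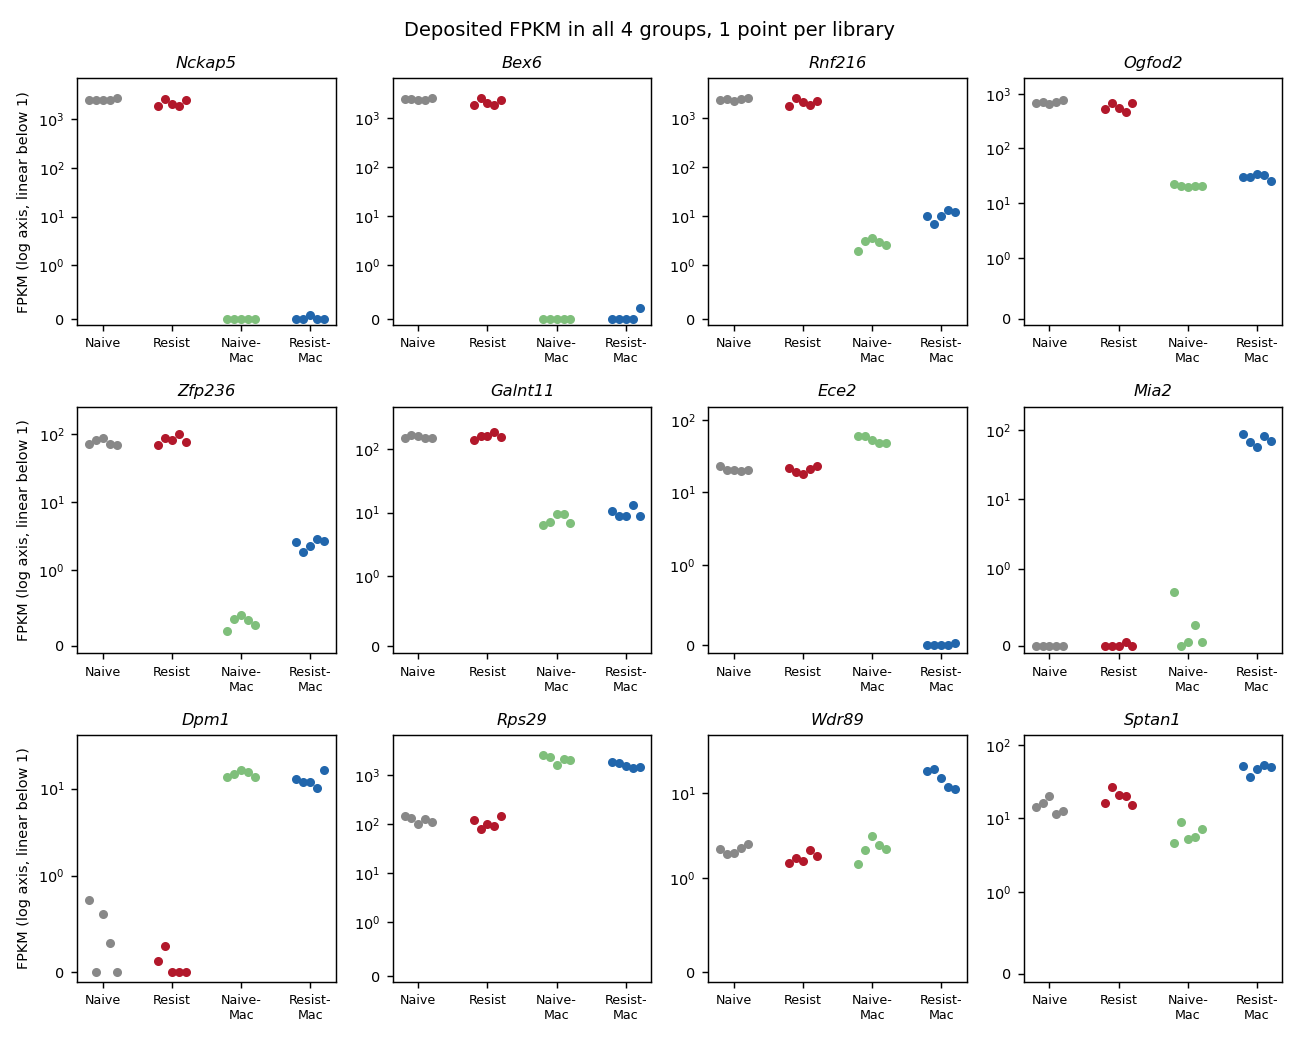
Deposited FPKM (log axis, linear below 1) of 12 genes with very large differences, 1 point per library, in Naive (gray), Resist (red), Naive-Mac (green) and Resist-Mac (blue). Nckap5, Bex6, Rnf216, Ogfod2, Zfp236 and Galnt11 were high in Naive and Resist and low in both depleted groups, whereas Mia2 and Wdr89 were high in Resist-Mac alone.

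Genes listed in only one of the tables could not be tested. Of 2789 genes listed for Resist alone 237 averaged at least 1 FPKM, and of 209 listed for Resist-Mac alone 11 did. The highest of the first kind with a symbol was Ubb-ps, a ubiquitin pseudogene, at 1036 to 1257 FPKM in Resist libraries. The highest of the second kind was Gm20594 at 63.4 to 103 FPKM in Resist-Mac libraries. Eef1akmt4, also of the second kind, was at 41.3 to 51.0 FPKM in Resist-Mac libraries. A gene of the first kind without a symbol was at 67.1 to 83.9 FPKM in Resist libraries. Whether such entries hold fragments that the other table gives to genes such as Ece2 and Mia2 was not tested.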

How the data were processed

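RNA of sorted tumor cells was sequenced as poly-A libraries with paired ends, and 10 libraries, 5 Resist and 5 Resist-Mac, were analyzed by their labels. The authors deposited FPKM for Resist-Mac on a linear scale and log2 (FPKM + 1) values for Resist and Naive, which were turned back to FPKM. The submitters' processing notes name Bowtie2 and mm9, while the quantifier and annotation are not given in the sources used here. No fragment counts were used, so count models were not applied, and depth was estimated from the value of 1 fragment in single-transcript genes of at least 1200 bases.

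Of 13868 genes listed in both tables, the 10031 that averaged 1 FPKM or more and had a transcript length (GENCODE M21) were tested. In each library the deviation of log2(FPKM + 1) from the gene mean was fitted on log2 length with a natural spline of 4 degrees of freedom and subtracted. The limma package (version 3.58.1, R 4.3.3) with a variance trend then compared the groups, with Benjamini-Hochberg adjustment over all genes tested. Differences are Resist minus Resist-Mac, and the pseudocount of 1 understates changes of low genes. Near-identical copies were transcripts that matched by minimap2 2.31 with 0.9 identity or more across 0.8 or more of their length. Fits were also run on simulated libraries with a length trend but no batch, copies or neutrophil RNA, and the outcome is not given here.

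Members and gene lists were chosen with earlier results of these data known. Named genes were the 12 largest differences in each direction under the conditions given with them, up to 4 genes near 0 in one group in each direction, up to 4 called members of each list with the largest differences (with fewer than 2 called, also the 2 most abundant), and 9 genes of the matrix, activin and hormone response pathways. Some of these are not reported here. Other genes were named after their values were seen. Symbols and promoters came from RefSeq (GRCm38.p6). Replicate numbers were checked for pairing by correlating same-numbered deviations, which ranged from -0.29 to 0.36, and were not used as pairs. Alternatives changed the length term, pseudocount, filter, scaling, threshold, test, copies and libraries.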

Additional observations from a re-analysis of the deposited data

Results flagged for a closer look

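In groups of 5 libraries, a library was singled out when its gap to the nearest other exceeded 0.71 of the group's range (Dixon's 95% value), which chance gives in about 1 of 20 groups. Of 198 groups of the named genes, 13 showed such a library, beside 9.9 expected by chance. Several lay in genes near 0, where all other libraries of the group were listed at 0. These were Bex6 at 0.2 FPKM in Resist-Mac replicate 5, Nckap5 at 0.09 FPKM in Resist-Mac replicate 3, Ece2 at 0.03 FPKM in Resist-Mac replicate 5, and Mia2 at 0.05 FPKM and Pip at 0.19 FPKM in Resist replicate 4.

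Pip, a secreted protein gene, was at 26.5 FPKM in Resist-Mac replicate 4 beside 0 to 1.07 FPKM in the other libraries of its group. Gbp2 was at 1.5 FPKM in Resist replicate 5, where the others lay between 4.25 and 5.3 FPKM. In Resist-Mac replicate 4 Gbp2 was at 2.89 FPKM beside 1.18 to 1.57 FPKM in the others. Mad2l1 was at 13.06 FPKM in Resist replicate 5 beside 9.78 to 10.42 FPKM. Lypd2 was at 10.8 FPKM in Resist replicate 2 beside 1.94 to 3.82 FPKM, and Pdzk1 at 4.38 FPKM in Resist replicate 1 beside 5.48 to 5.89 FPKM. In Resist-Mac replicate 2, Arpp19 was at 66.39 FPKM beside 44.48 to 50.33 FPKM and Eno1 at 1389.49 FPKM beside 1611.85 to 1672.42 FPKM.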

How the results depend on the processing

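The number of genes called depended on the length term and the threshold. Against 899 genes, 2174 were called without length correction, 1712 with the median transcript length (964 higher and 748 lower, beside 408 and 491), 254 at a fold change over 2, and 557 (178 higher and 379 lower) by the noise-distribution probability, and the cause was not tested. The other alternatives gave counts within 1.5 times. Leaving out 1 library gave 775 to 1044 calls and a slope difference of 0.35 to 0.40. Of 80 called genes that met the rule for naming, 65 were called in every fit that left out 1 library and 15 were not. Among the called genes that met this rule, directions turned for Smad2 (0.038) and Pfkp (0.11) with the median transcript length. They also turned for Ndufb7 with the longest coding transcript (0.050) and for Ndufa1 without length correction (-0.081). Named genes not called whose sign turned without length correction included B2m (-0.087), Ftl1 (-0.27), Tgfb1 (-0.14), Calr (-0.26) and Acvr2a (0.15). With the replicate number as a block, which pairs no samples here, 930 genes were called, and no named gene or list changed its call except B2m, called at 0.62. Same-numbered libraries correlated at -0.06, 0.25, -0.29, 0.36 and -0.04, and not every library correlated best with its own number. Batch equals group, so no within-batch value exists, and low genes are limited by a depth of about 10400000 to 13300000 fragments.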
